A study of Drosophila melanogaster with 27 samples.

Results

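The proteasome is the large protease that degrades ubiquitin-tagged proteins, and its mRNAs were followed here through the input and the pull-downs of an Fmr1 RNA immunoprecipitation from fly heads. Members were the genes of the deposited count table whose FlyBase symbol begins with Prosalpha, Prosbeta, Rpn or Rpt followed by a digit. They numbered 48 of 17807 genes. Of these, 32 encode standard subunits: 7 of the alpha ring, 7 of the beta ring, 6 ATPases, 4 other subunits of the base and 8 of the lid. The other 16 are paralogues, named with an R or T suffix, many of which are known from the fly testis.

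The core particle of the proteasome is a barrel of stacked rings. Its outer alpha rings gate the entrance and its inner beta rings hold the proteolytic sites, which belong to Prosbeta1, Prosbeta2 and Prosbeta5. The regulatory particle caps the barrel: its base carries a ring of Rpt ATPases that unfold substrates, the scaffolds Rpn1 and Rpn2 and the ubiquitin receptors Rpn10 and Rpn13, and its lid holds Rpn11, which removes ubiquitin. Because every subunit is built into one assembly, cells are known to hold their mRNAs at similar levels, in part through the transcription factor cnc, and neurons depend on the proteasome for synaptic growth and turnover.

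Fmr1, whose human relative FMRP is missing in fragile X syndrome, binds mRNA and regulates its translation, and Ythdf is a cytoplasmic reader of methylated adenosine in RNA. The study asked, per its title, how Ythdf affects the choice of Fmr1 targets. The wild type was the stock w1118 and the mutant the stock CG6422 with the genotype Ythdf#0/#0, so that the mutation and the rest of the stock's background cannot be told apart. Each genotype gave 3 kinds of library from lysates of 200 pupal heads: the untreated input, the RNA bound by the mouse antibodies 5B6 and 5A11 against endogenous Fmr1, and the RNA bound by mouse IgG. The design text calls the samples biological replicates. There were 5 of each kind in the wild type, numbered 1, 2, 3, 5 and 7, and 4 in the mutant, numbered 1, 2, 3 and 7. The labels give whole brain as the tissue where the protocol describes heads, and they give no age or sex.

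Depth, as counts in genes, was 5623123 to 15459370 for inputs, 10726339 to 54195136 for Fmr1 libraries and 196933 to 5879253 for IgG libraries. A standard subunit with counts had a median of 903 and 1424 counts per library in wild-type and mutant inputs, 1197 and 1251 in the Fmr1 libraries, but 68 and 67 in the IgG libraries, with a minimum of 8. As a check of the label, Ythdf stood at 33.2 ± 3.26 CPM (read counts scaled for library size; SD, n = 4) in mutant inputs and 61.9 ± 5.18 CPM (n = 5) in wild-type inputs (exact permutation test, two-sided, p = 0.0159). Marker genes put more than brain in these samples: in wild-type inputs 6 muscle markers summed to 25710 ± 2618 CPM and 8 neuron markers to 5742 ± 830.7 CPM, with no listed marker at 0. In bulk libraries fewer cells of a type and less RNA per cell cannot be told apart.

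In the inputs, mRNAs of the 31 standard subunits with counts stood at nearly even levels. Per length, from the exonic length of each gene, the wild-type means ran from 53.9 CPM per kb (Rpn13) to 105 CPM per kb (Prosbeta5), a ratio of 1.95, around a median of 74.7. All 31 lay within 1.5-fold of that median. In mutant inputs the ratio was 1.93, from 54.0 (Rpn13) to 104 CPM per kb (Prosalpha6), and again all 31 lay within 1.5-fold of the median. Libraries of a group also differed: Prosbeta5, first in the wild type, had 105 ± 18.3 CPM per kb and Prosbeta4 85.0 ± 8.73 (SD, n = 5).

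In the Fmr1 pull-down that evenness was gone. The wild-type means ran from 21.9 CPM per kb (Prosbeta4) to 124 CPM per kb (Rpt3), a ratio of 5.66, and 15 of 31 subunits lay within 1.5-fold of the median. In the mutant the ratio was 5.38, from 24.1 (Prosbeta4) to 129 CPM per kb (Rpn2), with 18 of 31 within 1.5-fold. The means of the IgG libraries had ratios of 2.52 (29 of 31 within) in the wild type and 1.89 (31 of 31) in the mutant. Taken library by library, wild-type inputs had ratios of 1.91 to 2.52 and wild-type Fmr1 libraries ratios of 4.38 to 10.4, against 1.95 to 2.29 and 4.00 to 11.4 for the mutant. The IgG libraries, with few counts, ranged from 2.34 to 4.59 and from 1.96 to 3.65. No Fmr1 library was as even as any input of its genotype.

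**Figure D1:**
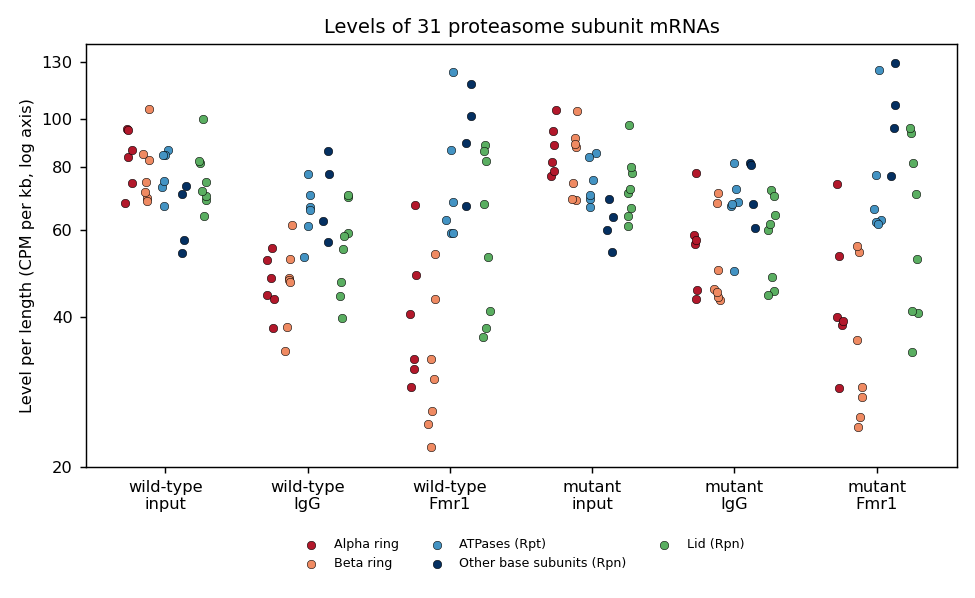
Mean level per length of 31 standard subunit mRNAs (CPM per kb of exonic sequence, log axis) in the 6 groups, with 1 point per subunit and colour by place in the complex. The points lie between 53.9 and 105 CPM per kb in the wild-type inputs, and spread from 21.9 to 124 CPM per kb in the wild-type Fmr1 libraries, where Prosbeta4 lies lowest and Rpt3 highest.

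The spread went with place in the complex, and place went with exonic length, from a median of 944 bases in the beta ring to 2356.5 in the other base subunits. Which of these the spread followed was not tested. Summed over the 7 beta ring mRNAs, wild-type levels were 551.9 ± 61.3 CPM in input, 324.4 ± 85.9 CPM with IgG and 234.4 ± 32.4 CPM with Fmr1 (SD, n = 5). The 6 alpha ring mRNAs with counts summed to 506.4 ± 56.3 CPM in input, 281.9 ± 70.5 CPM with IgG and 254.8 ± 48.7 CPM with Fmr1. The 4 other subunits of the base went the other way, with 604.8 ± 72.5 CPM in input, 711.9 ± 172.7 CPM with IgG and 929.5 ± 132.6 CPM with Fmr1. The 6 ATPases differed least, with 720.0 ± 91.6, 601.7 ± 170.5 and 702.5 ± 45.2 CPM, and the 8 lid subunits had 967.1 ± 91.9, 711.2 ± 188.0 and 807.3 ± 51.7 CPM.

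The mutant gave the same arrangement. Its beta ring summed to 572.3 ± 86.6 CPM in input and 255.0 ± 67.4 CPM with Fmr1 (n = 4), and its base Rpn subunits to 595.2 ± 20.0 and 1013 ± 148.8 CPM. All 7 beta ring mRNAs had their highest mean in input, a lower one with IgG and the lowest with Fmr1, in the wild type and in the mutant. Among the 4 base Rpn subunits the reverse order held for 3 in the wild type and for 4 in the mutant. The whole set of standard subunits summed to 3350 ± 318.7 CPM in wild-type input, 2631 ± 638.4 CPM with IgG and 2929 ± 132.8 CPM with Fmr1. Wild-type IgG replicate 7 stood apart with a sum of 1640 CPM, where the other wild-type libraries of that kind had 2523 to 3300 CPM.

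**Figure D2:**
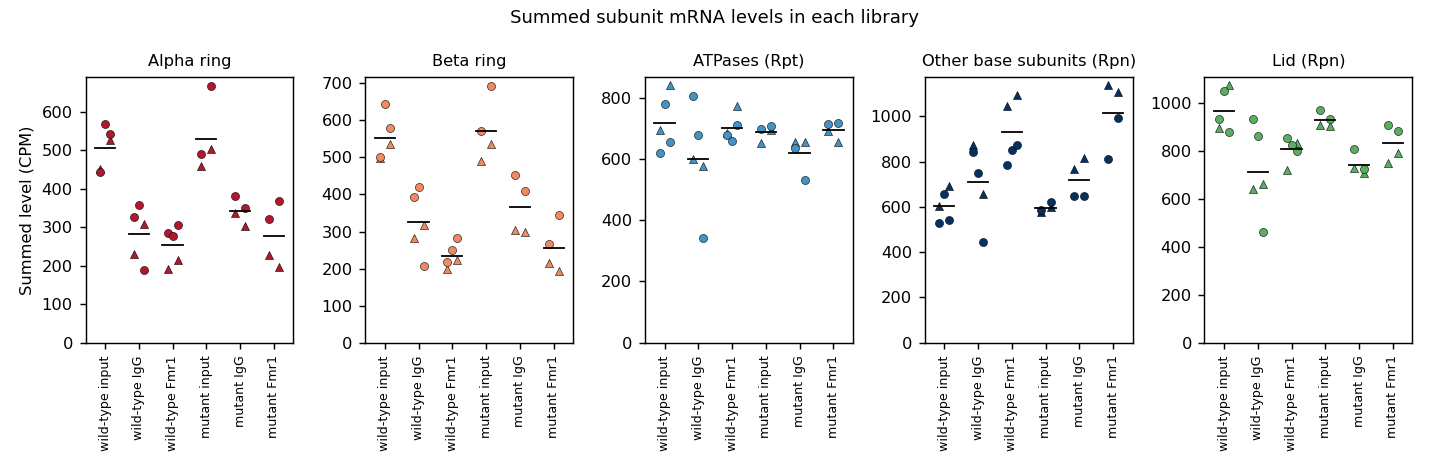
Summed levels (CPM) of the subunit mRNAs of each part of the complex in every library, with bars at group means, triangles for replicates 2 and 3 and circles for replicates 1, 5 and 7. The y axes start at 0. Beta ring sums fall from 551.9 CPM in wild-type input to 234.4 CPM with Fmr1, while those of the other base subunits rise from 604.8 to 929.5 CPM.

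Against input, 4 of the 33 members tested were higher and 17 lower in the wild-type Fmr1 pull-down by edgeR's quasi-likelihood test at an adjusted p of 0.05, and 12 did not pass. Over all 11469 genes tested, 48.8% passed, 23.2% higher and 25.6% lower, and the median log2 fold change was −0.035, against −0.48 over the 31 standard subunits. In the mutant 4 members were higher and 16 lower, and 13 did not pass, where 46.5% of all genes passed, 21.7% higher and 24.8% lower. The standard subunits had a median of −0.57 there and all genes −0.10. Without overlap between the groups, 3 wild-type members stood higher and 16 stood lower (18.9% and 20.7% of all genes), and 5 and 15 did so in the mutant (20.7% and 25.4%). The same 4 were higher in both genotypes, and the same 16 lower. The share of lower members was thus above the background in both genotypes, and that of higher members below it. With size factors of the RLE type the wild-type split was 2 higher and 19 lower.

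The beta ring held the lowest values. Of its 7 mRNAs, all fell in both genotypes, with a median of −1.46 in the wild type and −1.25 in the mutant. Prosbeta4, a structural subunit of the inner ring (2L:16731180-16732133, minus strand, in assembly BDGP6.54), gave the largest fall of the members. Its wild-type inputs had 58.8, 65.6, 73.2, 77.0 and 71.5 CPM in replicates 1, 2, 3, 5 and 7, its Fmr1 libraries 15.8, 12.9, 16.2, 22.8 and 21.5 CPM, and its IgG libraries 43.2, 35.0, 43.8, 63.9 and 27.0 CPM. The Fmr1 libraries lay below all of the others without overlap. The log2 fold change over input was −1.96 ± 0.22 (SE; adjusted p = 7.76e-08) and −2.11 ± 0.25 (adjusted p = 2.45e-07) in the mutant.

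The mutant libraries of Prosbeta4 repeated that order. Its inputs had 93.1, 72.8, 83.002 and 89.4 CPM in replicates 1, 2, 3 and 7, its Fmr1 libraries 24.4, 14.4, 13.1 and 26.6 CPM and its IgG libraries 45.7, 27.4, 30.99 and 58.1 CPM. Replicates 2 and 3 were the lower pair in both pull-downs.

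The 3 catalytic subunits all fell, to unequal extents. Prosbeta1, the caspase-like site, had 58.1, 56.0, 66.0, 90.9 and 81.9 CPM in wild-type inputs and 23.9, 17.4, 21.9, 29.4 and 35.4 CPM in Fmr1 libraries, a log2 fold change of −1.46 ± 0.27 (adjusted p = 6.84e-05). Prosbeta2, the trypsin-like site, had 73.6, 72.1, 72.1, 92.9 and 76.3 CPM against 44.2, 34.5, 41.8, 49.0 and 55.4 CPM, a change of −0.78 ± 0.19 (adjusted p = 0.00126). Prosbeta5, the chymotrypsin-like site, had 114, 101, 99.7, 145 and 138 CPM against 57.4, 63.1, 63.9, 56.4 and 63.9 CPM, a change of −0.97 ± 0.18 (adjusted p = 6.6e-05). None of the 3 overlapped between input and pull-down.

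In the mutant the same sites gave −1.66 ± 0.30 for Prosbeta1, −0.76 ± 0.21 for Prosbeta2 and −0.67 ± 0.20 for Prosbeta5, all of which passed (adjusted p = 7.94e-05, 0.00491 and 0.00716). Without mutant input replicate 7, Prosbeta5 no longer passed (−0.43, adjusted p = 0.096). The structural subunits Prosbeta3, Prosbeta6 and Prosbeta7 had −1.51 ± 0.26, −1.06 ± 0.22 and −1.46 ± 0.18 in the wild type, and −1.56 ± 0.30, −0.93 ± 0.24 and −1.25 ± 0.20 in the mutant. Prosbeta2 and Prosbeta5 share 82 and 81 exonic bases with genes on the other strand (Reck and Lsm10), and the strand setting of the counting is not given in the sources used here.

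Of the 6 alpha ring mRNAs tested, 5 fell in each genotype, with class medians of −1.29 and −1.01. Prosalpha7 had 91.4, 78.9, 85.2, 105 and 102 CPM in wild-type inputs and 35.8, 19.1, 21.2, 44.0 and 33.7 CPM with Fmr1, with no overlap (−1.59 ± 0.26, adjusted p = 1.2e-05). Prosalpha5, Prosalpha2 and Prosalpha6 followed with −1.36 ± 0.18, −1.34 ± 0.26 and −1.24 ± 0.26. Prosalpha3, whose amino terminus is known in yeast to close the gate of the barrel, was the exception: it had 74.3, 72.9, 91.7, 91.7 and 90.2 CPM in inputs and 77.4, 50.4, 58.2, 65.2 and 76.5 CPM with Fmr1, which overlapped (−0.36 ± 0.18, adjusted p = 0.108). Prosalpha4 was lower in both genotypes (−0.48 ± 0.19 and −0.57 ± 0.21), but its call was lost without any of wild-type input replicates 3, 5 and 7 or Fmr1 replicates 2, 3 and 5 (−0.46 to −0.40), and without mutant input replicates 1 or 7 or Fmr1 replicate 3 (−0.50 to −0.42).

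No value can be given for Prosalpha1, the remaining alpha subunit, which is listed at 0 counts in all 27 libraries together with its paralogue Prosalpha1R. The annotation gives both genes a coding length of 732 bases, and the table places reads that match several places in an entry of their own. Whether this sets the zeros was not tested.

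The members found above input were subunits of the base of the regulatory particle, while other base subunits were below it or did not pass. Rpn2, the largest scaffold (3R:29153524-29157255, plus strand, BDGP6.54), had 156, 203, 236, 218 and 163 CPM in wild-type inputs, 327, 315, 250.1, 263 and 166 CPM with IgG, and 342, 441, 458, 384 and 382 CPM with Fmr1. Its lowest Fmr1 library stood above the highest of both other kinds. The log2 fold change over input was 1.04 ± 0.16 (adjusted p = 5.75e-06). In the mutant, inputs had 202, 207, 209 and 201 CPM and Fmr1 libraries 357, 509, 454 and 446 CPM, a change of 1.11 ± 0.18 (adjusted p = 1.6e-05).

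Rpn10, the ubiquitin receptor that hands substrates to the base, had 102, 98.9, 106, 114.9 and 100.1 CPM in wild-type inputs, 81.7, 118, 72.8, 78.0 and 52.8 CPM with IgG and 117, 183, 177, 119 and 127 CPM with Fmr1. Replicates 2 and 3 stood highest with Fmr1, and all 5 lay above every input. The change over input was 0.47 ± 0.18 (adjusted p = 0.0291) in the wild type and 0.75 ± 0.20 (adjusted p = 0.00311) in the mutant, whose Fmr1 libraries had 103, 177, 182 and 143 CPM against 90.6, 83.8, 89.7 and 97.3 CPM in inputs. The wild-type call was lost without input replicates 2 or 7 or Fmr1 replicates 2 or 3 (0.37 to 0.46, adjusted p = 0.0558 to 0.104). With replicates 1, 5 and 7 alone the values were 0.17 in the wild type and 0.31 in the mutant (adjusted p = 0.511 and 0.363), and with RLE size factors 0.38 in the wild type (adjusted p = 0.0713).

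Rpn1, the second scaffold (3L:19915051-19918160, plus strand, BDGP6.54), rose by less, at 0.34 ± 0.14 (adjusted p = 0.0466) and 0.48 ± 0.16 (adjusted p = 0.0137) in the mutant. Its wild-type Fmr1 libraries had 262, 268, 296, 270.2 and 262 CPM and its inputs 199.6, 215, 251, 220.3 and 190.5 CPM, without overlap. The IgG libraries, at 331, 280.1, 239, 301 and 162 CPM, spanned both. The wild-type call did not hold without input replicates 1, 2 or 7 or without any single Fmr1 library (0.30 to 0.35, adjusted p = 0.0558 to 0.11). In the mutant it was lost without input replicates 2 or 3 or Fmr1 replicate 2 (0.38 to 0.40). Rpn13, the other ubiquitin receptor, had 0.31 ± 0.24 and 0.51 ± 0.27 and passed in neither genotype.

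Of the 6 ATPases 1 rose. Rpt3 had 116, 127, 154, 141 and 122 CPM in wild-type inputs and 165, 222, 255, 143 and 179 CPM with Fmr1, where replicate 5 fell within the range of the inputs (0.55 ± 0.19, adjusted p = 0.0157). The call was lost without Fmr1 replicate 3 (0.43, adjusted p = 0.0683). In the mutant Rpt3 had 127, 124, 140.4 and 139.7 CPM against 167, 220, 215 and 178 CPM (0.55 ± 0.21, adjusted p = 0.0308), a call lost without input replicates 2 or 3 or Fmr1 replicates 2 or 3 (0.42 to 0.51). With replicates 1, 5 and 7 alone Rpt3 had 0.34 and 0.29 and passed in neither genotype. Rpt1 fell in the wild type (−0.47 ± 0.14, adjusted p = 0.00635) and did not pass in the mutant (−0.19 ± 0.15), and the difference between the genotypes was 0.28 ± 0.21 with an adjusted p of 1. Rpt2, Rpt4, Rpt5 and Rpt6 lay between −0.31 and 0.03 in both genotypes and did not pass. Rpt6 and Rpt2 share 182 and 116 exonic bases with genes on the other strand.

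The lid was split. Rpn11, the deubiquitinase, averaged 82.96 ± 12.7 CPM in input and 44.0 ± 8.55 CPM with Fmr1 in the wild type (n = 5), and fell by 0.92 ± 0.18 on the log2 scale (adjusted p = 0.00014). It fell by 0.65 ± 0.20 in the mutant (adjusted p = 0.01), where the call was lost without input replicate 7 (−0.54) or Fmr1 replicate 3 (−0.47). Rpn9, Rpn12 and Rpn7 also fell in both, with −0.91 ± 0.25, −0.76 ± 0.18 and −0.64 ± 0.15 in the wild type and −0.84 ± 0.28, −0.79 ± 0.20 and −0.57 ± 0.16 in the mutant. In the mutant Rpn9 lost its call without input replicates 1 or 7 or Fmr1 replicate 3 (−0.73 to −0.63), and Rpn7 without input replicate 7 (−0.41). The other 4, Rpn3, Rpn5, Rpn6 and Rpn8, ranged from −0.28 to 0.21 in the wild type and from −0.25 to 0.37 in the mutant and did not pass.

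**Figure D3:**
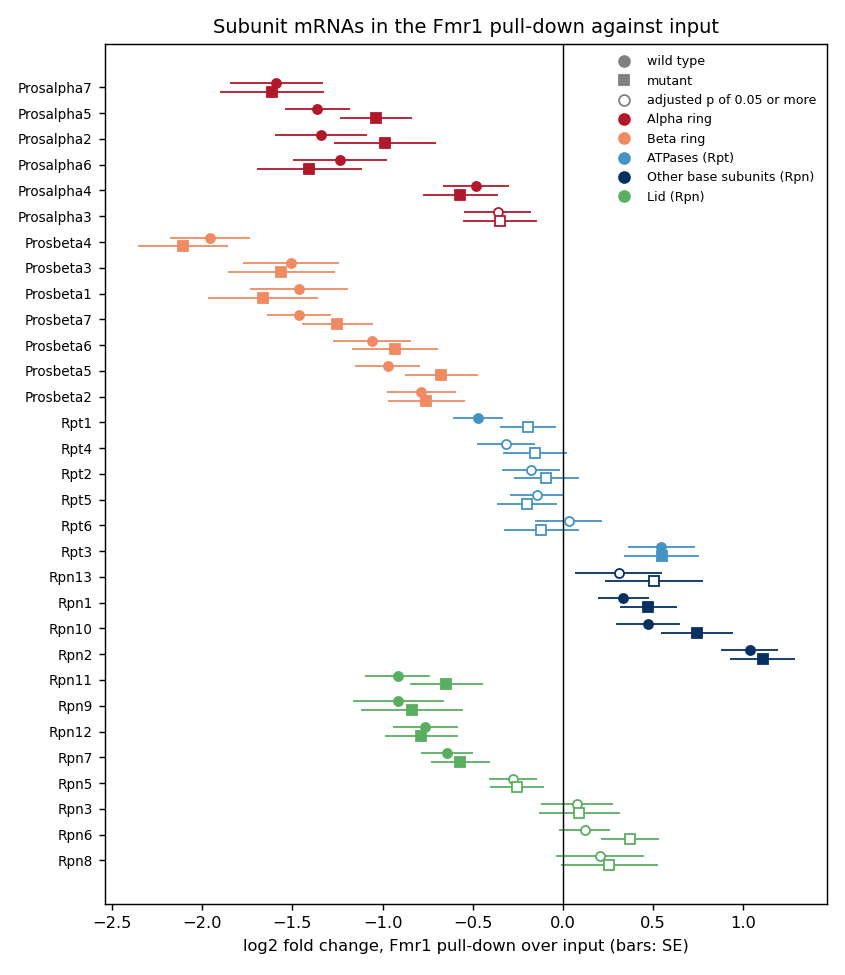
Log2 fold change of each standard subunit mRNA in the Fmr1 pull-down over input (x axis, bars are SE), with circles for the wild type and squares for the mutant, and open symbols where the adjusted p was 0.05 or more. The values run from −1.96 for Prosbeta4 to 1.04 for Rpn2 in the wild type, and from −2.11 to 1.11 for the same genes in the mutant.

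The measured change moved with the length of the gene, in the proteasome as in all coding genes. Over the 31 subunits, Spearman's rho between exonic length and the log2 fold change over input was 0.817 in the wild type and 0.808 in the mutant, and over 10432 coding genes it was 0.672 and 0.696. These are descriptions across genes measured in the same libraries. Exonic lengths had class medians of 944 bases in the beta ring, 974.5 in the alpha ring, 1534 in the ATPases, 1605.5 in the lid and 2356.5 in the other base subunits. Of coding genes of up to 1000 bases, 68.6% were lower in the wild-type pull-down, with a median of −1.33, and of the 9 subunits of that size 8 were lower, with a median of −1.36. Between 1000 and 1500 bases the medians were −0.50 for coding genes and −0.71 for 10 subunits, and between 1500 and 2500 bases −0.03 for both. Above 2500 bases coding genes had a median of 0.50, with 51.2% higher, and the 2 subunits of that size, Rpn1 and Rpn2, one of 0.69. The part of length in the values of the subunits was not tested beyond this comparison.

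**Figure D4:**
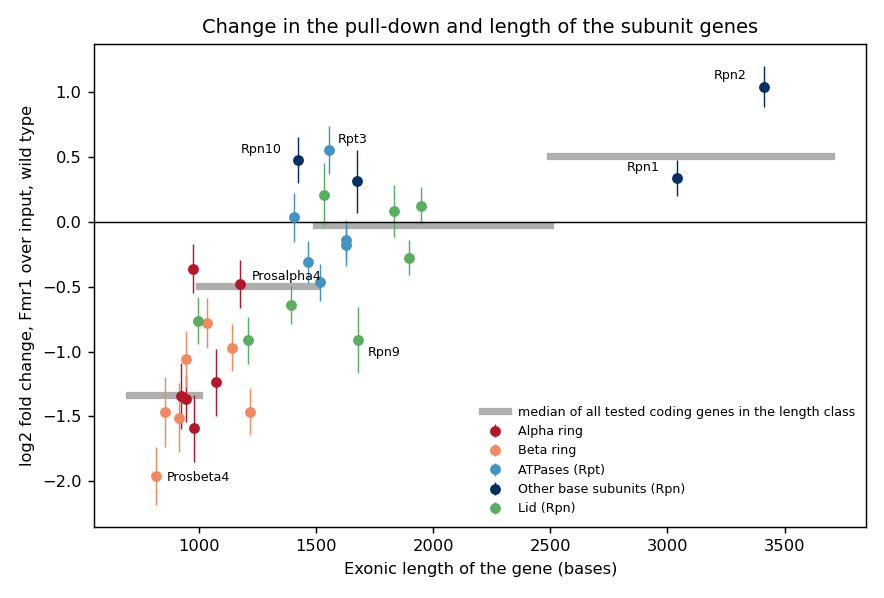
Log2 fold change over input in the wild type (y axis, bars are SE) against the exonic length of the gene in bases (x axis) for 31 subunits, with grey lines for the median of all tested coding genes in 4 length classes. The grey lines rise from −1.33 to 0.50 and the subunits rise with them, with Rpt3 and Rpn10 above and Prosbeta4 below the line of their class.

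Other families gave a scale for these values. Of 80 mRNAs of cytosolic ribosomal proteins tested (88 listed), 73 were lower and 2 higher over wild-type input, with a median of −2.14. Of 8 subunits of the COP9 signalosome, an assembly related to the lid, 7 were lower (median −0.82). Of 15 subunits of the vacuolar proton pump tested (21 listed), 4 were lower and 1 higher (median 0.22). The muscle markers also moved: 5 of 6 were higher over wild-type input, and their sum rose from 25710 ± 2618 CPM in input to 59490 ± 13900 CPM with Fmr1. With IgG it was 48610 ± 14700 CPM. In the mutant the muscle sums were 47780 ± 14980 CPM with Fmr1 and 50180 ± 18220 CPM with IgG. Wild-type neuron markers summed to 9430 ± 1661 CPM with Fmr1 and 4805 ± 919.7 CPM with IgG. Of these 8 markers, 4 were higher over input and 0 lower, and 2 had values below 0. The 7 glia markers summed to 3976 ± 332.1 CPM in wild-type input and 2769 ± 552.3 CPM with Fmr1, with 1 higher and 1 lower. The part of these cell types in the proteasome values was not tested.

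Against the IgG control fewer members passed. In the wild type 6 of 33 members were higher and 3 lower, where 33.4% of all genes passed (16.4% higher, 17% lower). In the mutant 3 were higher and 2 lower, where 20.4% passed (10.8% higher, 9.61% lower). Without overlap, 2 wild-type members stood higher and 1 stood lower (8.07% and 3.85% of all genes), and 4 and 2 did so in the mutant (9.71% and 6.41%). The shares of members that passed were below or near those of all genes. The split also depended on scaling: with RLE size factors the median of all genes moved by −0.22 in the wild type and −0.15 in the mutant, and the members then split into 3 higher and 6 lower, and 1 higher and 3 lower. The fat body markers, at 1535 ± 575.1 CPM in wild-type IgG libraries and 82.7 ± 80.8 CPM with Fmr1, moved with the same contrast, and their part in it was not tested. Fmr1 libraries enter both this comparison and the one over input, so the 2 are not independent.

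Rpn10 and Rpn2 were among the members above IgG in both genotypes. Rpn10 rose by 0.90 ± 0.19 (adjusted p = 0.000679) and 0.67 ± 0.21 (adjusted p = 0.0238) in the mutant, and Rpn2 by 0.63 ± 0.16 (adjusted p = 0.00361) and 0.67 ± 0.18 (adjusted p = 0.00875). Rpn2 did not overlap between the groups in either genotype, and Rpn10 overlapped in both. Rpt3 (0.72 ± 0.20 and 0.62 ± 0.22) passed in both genotypes, and the lid subunits Rpn5 (0.50 ± 0.14) and Rpn8 (0.78 ± 0.27) and the ATPase Rpt5 (0.44 ± 0.16) passed in the wild type. Over wild-type input Rpn5 and Rpt5 had −0.28 and −0.14 and did not pass (adjusted p = 0.0873 and 0.461). Of the members above IgG, Rpn5, Rpn8 and Rpt5 did not pass with RLE size factors, nor did Rpn10 and Rpt3 in the mutant. Rpn8 showed the libraries behind it: replicate 1 had 159 CPM with IgG and 191 CPM with Fmr1, where replicates 2, 3 and 7 had 52.2 to 57.5 CPM and 108 to 128 CPM, and replicate 5 had 98.6 and 123 CPM. With only the compared groups in the model, Rpn2 and Rpt3 had 0.53 and 0.61 in the wild type and did not pass (adjusted p = 0.0698 and 0.0911). In that model Rpn5, Rpt5 and Rpn8 had 0.41, 0.34 and 0.68 in the wild type and did not pass (adjusted p = 0.119, 0.294 and 0.116). In the mutant Rpn2, Rpt3 and Rpn10 had 0.56, 0.51 and 0.55 and did not pass either (adjusted p = 0.0932, 0.142 and 0.17).

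Below IgG, Prosbeta4 passed in both genotypes, with −1.23 ± 0.24 (adjusted p = 0.000274) and −1.08 ± 0.27 (adjusted p = 0.00459), and its groups did not overlap in either. Prosalpha5 passed in the wild type (−0.66 ± 0.20) and Prosbeta7 in the mutant (−0.62 ± 0.21). The catalytic subunits did not pass, with −0.57 ± 0.30, −0.15 ± 0.21 and −0.10 ± 0.20 for Prosbeta1, Prosbeta2 and Prosbeta5 in the wild type. In the mutant they had −0.70 ± 0.33, −0.33 ± 0.23 and −0.33 ± 0.21. With the replicate number as a block, which pairs the mutant libraries, 3 members were higher and 4 lower in the mutant, and Prosbeta1 was one of these (−0.72, adjusted p = 0.0409). Rpn11 did not pass, at −0.12 ± 0.20 and −0.14 ± 0.22.

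The mutant calls over IgG rested on few libraries. The count of 5 members called became 0 without IgG replicate 7, 1 without Fmr1 replicate 2, 2 without Fmr1 replicate 3 or IgG replicate 1, and 3 without IgG replicate 2. Without IgG replicate 7, Prosbeta4 had −0.80 (adjusted p = 0.0786), and Rpn2 had 0.60 (adjusted p = 0.0542). Without Fmr1 replicate 2, Rpn2 had 0.51. Rpn10 lost its mutant call without Fmr1 replicates 2 or 3 or IgG replicates 1 or 7 (0.49 to 0.62), and Rpt3 did so without Fmr1 replicates 1, 2 or 3 or IgG replicates 1, 2 or 7 (0.46 to 0.65). Prosbeta7 kept its call only with Fmr1 replicates 1 or 7 left out (−0.69 to −0.52 in the others). In the wild type Prosbeta4, Rpn10, Rpn2, Rpn5 and Rpt3 passed with any 1 of the compared libraries left out. Rpn8 lost its call without Fmr1 replicate 1 or IgG replicates 2, 3 or 7 (0.61 to 0.71), Rpt5 without Fmr1 replicates 1, 3, 5 or 7 or IgG replicates 2, 3 or 7 (0.27 to 0.44), and Prosalpha5 without Fmr1 replicate 1 or IgG replicate 3 (−0.61 and −0.56).

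No member passed for a difference between the genotypes in its ratio of Fmr1 pull-down to IgG or to input. The mutant minus wild-type difference in the log2 fold change over IgG had an adjusted p of 1 for all 33 members tested, where 0% of all genes passed, and the same held over input, where 0.00872% passed. By edgeR 0 members had an unadjusted p under 0.05 in either difference, and by DESeq2 0 passed. Over input, the standard subunits nearest to a difference were Rpt1 (0.28 ± 0.21), Prosalpha5 (0.33 ± 0.27) and Rpn6 (0.25 ± 0.21). Prosbeta1, Prosbeta2, Prosbeta5, Rpn10 and Rpn11 had −0.20 ± 0.40, 0.03 ± 0.29, 0.30 ± 0.27, 0.27 ± 0.27 and 0.27 ± 0.27. Over IgG, Prosalpha4, Prosalpha6 and Prosalpha3 had the smallest p, with −0.43 ± 0.31, −0.49 ± 0.42 and −0.33 ± 0.30. These p-values do not show that the genotypes were alike: the SE of the difference over input was 0.20 to 0.40 for the standard subunits.

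The inputs of the genotypes were compared next, which asks for the level of these mRNAs in the heads themselves. Summed neuron markers spanned 3859 to 4358 CPM among mutant inputs, below the wild-type span of 4689 to 6728 CPM. Summed fat body markers spanned 180.7 to 239.4 CPM among mutant inputs, above the wild-type span of 61.55 to 125.8 CPM. Muscle and glia sums overlapped. By single genes, 0 of 8 neuron markers passed and 2 of 6 fat body markers were higher. The part of cell types in the values that follow was not tested. Of 33 members 1 passed, where 5.68% of all genes did (3.33% higher, 2.35% lower), and it was a paralogue, Rpt6R. The 31 standard subunits had a median log2 difference of −0.004, with 15 above 0 and 16 below. Prosbeta2 (0.29 ± 0.20, adjusted p = 0.473) and Rpt1 (−0.20 ± 0.15, adjusted p = 0.5) came nearest to the threshold among them. Prosbeta1, Prosbeta5, Rpn10 and Rpn11 had 0.08 ± 0.28, −0.24 ± 0.19, −0.21 ± 0.19 and −0.11 ± 0.19. Rpn10 was the only standard subunit whose inputs did not overlap, with mutant libraries at 83.8 to 97.3 CPM and wild-type libraries at 98.9 to 114.9 CPM, and 9.98% of all genes were lower without overlap.

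Rpt6R, a relative of the ATPase Rpt6 (3R:30582198-30583697, minus strand, BDGP6.54), was higher in the mutant stock. Its inputs had 7.46, 7.13, 5.37 and 7.40 CPM in mutant replicates 1, 2, 3 and 7 and 2.88, 2.46, 3.34, 4.06 and 2.36 CPM in wild-type replicates 1, 2, 3, 5 and 7. All 4 mutant libraries stood above all 5 of the wild type, as did those of 11.2% of all genes. The log2 difference was 1.17 ± 0.25 (adjusted p = 0.00348), on 77 to 120 counts per mutant input and 16 to 38 per wild-type input.

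The same order was seen for Rpt6R outside the inputs. The protocol divides each lysate, so the pull-downs are not independent of the inputs. With Fmr1 the mutant had 5.38, 7.26, 7.26 and 8.48 CPM and the wild type 2.99, 2.73, 2.26, 3.93 and 2.16 CPM, without overlap. This pair of groups was not tested directly, and the share of all genes without overlap between them was not counted. With IgG, on 1 to 29 counts per library, the difference was 1.25 ± 0.41 and did not pass (adjusted p = 0.0723), and of 33 members 0 did, where 4.27% of all genes passed (2.09% higher, 2.18% lower). No member was free of overlap between the IgG groups (2.28% of all genes higher, 1.43% lower). By edgeR 5 members had an unadjusted p under 0.05 there, and by DESeq2 0 passed the adjusted threshold. Rpt6R itself was neither higher nor lower with Fmr1 than in input (−0.10 ± 0.24 and 0.06 ± 0.25). Rpt6, its standard counterpart, had 117.8 ± 5.98 CPM in mutant and 119.1 ± 18.8 CPM in wild-type inputs (−0.02 ± 0.20). How reads that match both copies were counted is not given in the sources used here.

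**Figure D5:**
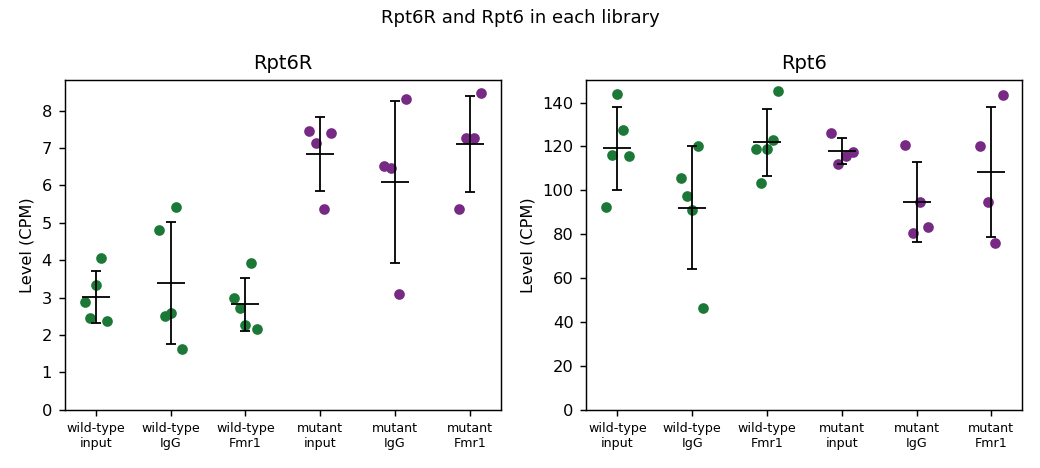
Levels of Rpt6R and of Rpt6 (CPM, axes from 0) in every library of the 6 groups, with 1 point per library and bars at the mean ± SD. The mutant inputs of Rpt6R lie at 5.37 to 7.46 CPM and the wild-type inputs at 2.36 to 4.06 CPM, while Rpt6 has means of 117.8 and 119.1 CPM.

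The other paralogues were close to absent. Besides Prosalpha1R at 0, 13 of the 14 paralogues that were not tested had 5 to 143 counts in total over the 27 libraries, and at most 39 in any library. Rpt4R (143), Rpt3R (125) and Rpn12R (75) had the highest totals. Rpn13R had 235 counts, of which 99 came from wild-type IgG replicate 7. Its low value over wild-type IgG (−3.77 ± 0.74, adjusted p = 0.000254) rested on that library, with −1.94 and an adjusted p of 0.143 without it. By name these are relatives of Prosalpha3, Prosalpha4, Prosalpha6, Prosbeta2, Prosbeta4, Prosbeta5, Rpn12, Rpn13, Rpt3, Rpt4 and Rpt6.

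Genes that build or regulate the proteasome, from a list of 10, split in the same comparison. Over wild-type input 3 were higher and 4 lower (23.2% and 25.6% of all genes), and in the mutant 3 and 3 (21.7% and 24.8%). The transcription factor cnc, which is known to induce proteasome genes, rose by 1.03 ± 0.17 (adjusted p = 1.66e-05) and 0.81 ± 0.19 in the mutant, and Keap1, its inhibitor, by 1.13 ± 0.17 and 0.64 ± 0.18. CG8858 also rose (0.95 ± 0.14 and 1.01 ± 0.15). Its means with Fmr1 and with IgG were 98.3 and 94.8 CPM in the wild type, and 85.9 and 100.5 CPM in the mutant. Those of Keap1 were 33.5 and 27.5 CPM in the wild type, and 21.8 and 20.55 CPM in the mutant. Those of cnc were 614.8 and 393.2 CPM, and 540.7 and 431 CPM. Pomp, a chaperone of core assembly, had −2.05 ± 0.21 (adjusted p = 2.07e-08) and −1.85 ± 0.23, and REG, a cap that activates the core, −1.26 ± 0.24 and −1.30 ± 0.27. PI31, another regulator of the core, had −1.23 ± 0.19 and −1.21 ± 0.21. The cnc partner maf-S was lower in the wild type (−1.21 ± 0.30) and did not pass in the mutant (−0.61 ± 0.34). None of the 10 passed between the inputs of the genotypes.

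Genes that bring ubiquitin and substrates to the proteasome, a list of 25, were mostly lower over input. In the wild type 14 were lower and 4 higher (25.6% and 23.2% of all genes), and in the mutant 15 and 5 (24.8% and 21.7%). The medians were −0.47 and −0.63. The lowest were RpS27A (−3.31 ± 0.24) and RpL40 (−2.88 ± 0.34), which encode ubiquitin fused to a ribosomal protein, followed by the ubiquitin-conjugating enzymes eff (−2.19 ± 0.42) and Ubc10 (−1.52 ± 0.22). The higher ones in the wild type were the ubiquitin ligase Ufd4 (1.08 ± 0.16), the deubiquitinase Usp5 (0.58 ± 0.18), the unfoldase TER94 (0.52 ± 0.15) and the shuttle Ubqn (0.46 ± 0.15). Rad23, another shuttle, and the proteasome-bound deubiquitinases Usp14 and Uch-L5 were lower (−0.52 ± 0.21, −0.70 ± 0.18 and −0.47 ± 0.18). Against IgG fewer passed: 6 higher and 2 lower among wild-type libraries, 1 and 2 among mutant ones. Means with Fmr1 and with IgG stood at 939.3 and 705.5 CPM for wild-type Ufd4, and 46.81 and 44.22 CPM for Usp5. For TER94 they were 521.3 and 378.8 CPM, and for Ubqn 225.4 and 150.5 CPM. In the mutant, in the same order, they were 793.9 and 740.2, 58.08 and 53.52, 553.7 and 444.1, and 235 and 167 CPM. The part of the control in these values was not tested. None of the 25 passed between the inputs.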

How the data were processed

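The submitters' processing notes name bcl2fastq 2.20, Trim Galore and STAR. The genome build, the strand setting and the use of molecular barcodes in counting are not given in the sources used here. The deposited table gives raw counts per gene for 27 libraries, and 5 closing entries for reads outside genes, which held 23.8% to 74.7% of a library, were left out. Symbols, positions and lengths came from the Ensembl annotation of BDGP6.54, matched by identifier (17710 of 17807 found).

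In R 4.3.3, edgeR 4.0.16 kept 11469 genes by filterByExpr (at least 10 counts, total 15). After TMM scaling, a robust quasi-likelihood model with the 6 groups and no block gave 8 comparisons, with p-values adjusted by the Benjamini-Hochberg method over all genes tested and a threshold of 0.05. Levels (CPM after TMM) carry the SD, and log2 fold changes come with the SE. The p-values measure the spread between these samples. DESeq2 1.42.0, other scalings, filters, replicate sets and a replicate block were alternatives. The closing section gives their effect.

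Same-numbered libraries were taken as paired where every correlation of their deviations from the group means exceeded 0.1. This held for Fmr1 and input in the wild type (0.175 to 0.473) and the mutant (0.138 to 0.495) and for Fmr1 and IgG in the mutant (0.181 to 0.318), and the protocol divides each lysate. It did not hold for Fmr1 and IgG in the wild type (−0.0128 to 0.326), where only replicate 7 fell below 0.1. The division of the lysate applies to those libraries too, and the correlations cannot undo it. The p-values given with the results come from the model without a block and so leave the pairing out. The replicate block was the alternative that used it.

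All members were counted. The naming rule gave, per comparison, up to 6 members with the largest called change in each direction and no overlap (the 3 with the smallest p where fewer passed), and Prosbeta1, Prosbeta2, Prosbeta5, Rpn10 and Rpn11 everywhere. Other members named were chosen after their values were seen. Members and lists were chosen with earlier results of these data known.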

Additional observations from a re-analysis of the deposited data

Results flagged for a closer look

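The items looked at were the members named by the rule, and the summed levels of the standard subunits and of each part of the complex. Of 162 groups of libraries over these 27 items, 10 had a library far from the rest of its group, where chance gives about 1 in 20. Of these, 3 belong to wild-type IgG replicate 7, which also had the lowest summed level of the subunits. Its Rpt3 stood at 59.3 CPM with the nearest library at 123.7 CPM, its Prosalpha5 at 22.8 CPM with the nearest at 48.0 CPM, and its Rpn13R at 16.03 CPM with the nearest at 3.22 CPM.

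Among mutant inputs, replicate 7 was highest for Prosalpha6 (144.1 CPM, nearest 103.7) and Rpn1 (220.1 CPM, nearest 207.3), replicate 2 was lowest for Rpn11 (69.4 CPM, nearest 79.1) and replicate 3 lowest for Rpt6R (5.37 CPM, nearest 7.13). In wild-type inputs Prosbeta2 stood at 92.9 CPM in replicate 5 (nearest 76.3). With Fmr1, Rpn1 had 296.3 CPM in wild-type replicate 3 (nearest 270.2) and Rpt1 had 121.0 CPM in mutant replicate 1 (nearest 95.5).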

How the results depend on the processing

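Over input, 21 members passed in the wild type and 20 in the mutant, and these counts stayed within 1.5 times under every alternative except replicates 1, 5 and 7 alone, with 10 in the mutant. Counts with 1 library left out were 17 to 20 and 16 to 20. Over IgG the counts moved more: from 9 in the wild type to 3 with only the compared groups fitted, 4 with replicates 1, 5 and 7, 16 with replicates 2 and 3 and 6 to 11 with 1 library left out. In the mutant they moved from 5 to 2, 0, 14 and 0 to 7, and to 3 with upper-quartile factors. Between inputs 1 member passed, 0 with replicates 1, 5 and 7 (Rpt6R at 1.29, adjusted p = 0.0722), 2 with replicates 2 and 3, and 1 with any library left out. Between IgG groups 0 passed, 1 with the replicate block (Rpt6R at 1.46, adjusted p = 0.0272) and 0 to 1 with a library left out, though the numbers do not pair those groups (correlations 0.0496 to 0.194). Among members named by the rule or called, the block changed no other call beyond those given with the results; the others were only counted. Neither difference between genotypes called a member under any alternative. Ythdf differed by −1.01 to −0.82 with 1 input left out. With replicates 1, 5 and 7 alone, the calls over input of Prosalpha4, Rpn1, Rpn10 and Rpt3 were lost in both genotypes, as was that of Rpt1 in the wild type (−0.38) and those of Prosalpha2, Prosbeta2, Prosbeta6, Rpn7, Rpn9 and Rpn11 in the mutant (−0.81 to −0.43). RLE size factors and DESeq2 ended the calls over input of Rpn1 (0.25 in both) and Rpn10 (0.38 in both) in the wild type and of Rpt3 (0.46 in both) in the mutant. The stricter filter ended the same calls (0.26, 0.39 and 0.44) and, over IgG, those of Rpn5, Rpt5 and Rpn8 in the wild type (0.29, 0.24 and 0.58) and of Rpt3 and Rpn10 in the mutant (0.44 and 0.48). With no filter, Rpn1 (0.35) and Prosalpha4 (−0.47 and −0.50 in the mutant) lost their calls over input, and Prosalpha5 (−0.62, wild type) and Prosbeta7 (−0.57, mutant) theirs over IgG. The same numbers did not pair the inputs of the genotypes (correlations 0.0214 to 0.354). The causes were not tested.

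No called value of a member changed sign. Among members named by the rule or called, these values did not pass and changed sign; the others were not followed. The genotype difference over IgG of Rpn11 was 0.042 with RLE size factors, 0.0056 with upper-quartile factors, 0.026 with the stricter filter, 0.041 with DESeq2, 0.0056 with only the compared groups, 0.090 with replicates 2 and 3, 0.039 with replicates 1, 5 and 7 and −0.16 to 0.15 with a library left out. The difference over input of Prosbeta2 was −0.0031 (upper-quartile), −0.0071 (stricter filter), −0.0034 (compared groups) and −0.19 to 0.17 (library left out). Prosbeta1 between IgG groups was −0.038 (RLE), −0.027 (upper-quartile), −0.040 (stricter filter), −0.058 (DESeq2), −0.034 (compared groups), −0.48 (replicates 2 and 3) and −0.17 to 0.21 (library left out). Replicates 2 and 3 gave 0.19 for Prosbeta5 over wild-type IgG, 0.10 and 0.17 for the difference over IgG of Prosbeta1 and Prosbeta2, and −0.039 for Rpn11 between IgG groups. Replicates 1, 5 and 7 gave Rpn11 0.037 and 0.075 over IgG in the wild type and the mutant and 0.071 between inputs. With a library left out, Rpn11 over mutant IgG ran from −0.36 to 0.045, Prosbeta2 and Prosbeta5 over wild-type IgG from −0.31 to 0.028 and −0.29 to 0.043, and Prosbeta1 from −0.51 to 0.082 (difference over IgG), −0.58 to 0.039 (difference over input) and −0.17 to 0.25 (between inputs).

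In IgG libraries a standard subunit had a median of 68 or 67 counts per library, and what this depth adds to the errors was not tested. The unfiltered test used 16621 genes and the stricter one 7984.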

Other observations

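Replicates 2 and 3 stood apart in the base Rpn and alpha ring sums of the Fmr1 libraries of both genotypes. Their beta ring, ATPase and lid sums overlapped those of the other replicates in the wild type and lay below them in the mutant. The base Rpn mRNAs summed to 1045 and 1093 CPM in wild-type replicates 2 and 3, and to 785.0, 852.2 and 872.1 CPM in replicates 1, 5 and 7. The alpha ring mRNAs went the other way, with 192.3 and 214.4 CPM against 284.3, 277.2 and 305.6 CPM. In the mutant the base Rpn sums were 1139 and 1110.0 CPM in replicates 2 and 3, and 811.4 and 992.4 CPM in replicates 1 and 7. The alpha ring sums there were 228.7 and 196.8 CPM against 320.3 and 367.2 CPM. Muscle marker sums were highest in the same libraries, at 78910 and 69540 CPM with Fmr1 in the wild type (48100 to 51290 CPM in the others) and 50180 and 67030 CPM in the mutant (31350 and 42570 CPM). The labels give no batch that separates these replicates, and the part of the marker genes in these sums was not tested.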
